A study of Mus musculus with 12 samples.

Results

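The NADPH oxidases are membrane enzymes that move electrons from NADPH to oxygen and release superoxide or hydrogen peroxide. Transcripts of 9 of their subunits (Cybb, Ncf1, Ncf4, Rac2, Cyba, Rac1, Nox4, Nox1 and Noxa1) were measured in RNA of the descending aorta from male mice of the C57BL/6 strain, of which 6 were 20 months old and 6 were 6 months old. No genotype beyond the strain is given. The mice received water and standard chow at will, and each gave 1 Agilent 1-colour array. The array files name 13 probes for these genes, of 55630 gene probes kept. Of these 13, 12 passed the filter on dim probes (well above background on 6 or more arrays of either age), and all 9 genes were among the 16853 genes tested.

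In phagocytes the catalytic subunit is NOX2, encoded by Cybb. It sits in the membrane with its partner p22phox, encoded by Cyba, and stays idle until cytosolic organizer and activator proteins, among them the products of Ncf1 and Ncf4, and a Rac GTPase join it. The vessel wall uses relatives of this enzyme. NOX4, abundant in smooth muscle and endothelium, needs Cyba but no cytosolic activator and mainly yields hydrogen peroxide, whereas NOX1 of smooth muscle needs Cyba, an organizer, the activator encoded by Noxa1, and Rac1. Cybb, Ncf1, Ncf4 and Rac2 are called the leukocyte subunits below, Nox4, Nox1 and Noxa1 the vessel-wall subunits, and Cyba and Rac1 the shared subunits. NOX2 also occurs in endothelium and adventitial fibroblasts, so the classes follow the best known site and not an exclusive one.

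Some probes and gene starts are shown first. Both Nox1 probes are printed because only the first cleared background. The Nox4 and Cyba probes printed are second probes, whose coordinates span more bases than the probe is long, so that each crosses at least 1 splice junction. They give a reading of the same gene at another place than the probe used for its level. Probe sequences and positions are those of the array files, on mouse build mm9, and no capitals are marked in them.
Nox1 probe at chrX:130621740-130621799, minus strand: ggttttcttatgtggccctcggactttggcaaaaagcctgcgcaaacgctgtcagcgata
Nox1 probe at chrX:130627582-130627641, minus strand: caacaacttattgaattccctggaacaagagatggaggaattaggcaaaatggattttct
Nox4 probe at chr7:94472458-94487478, plus strand: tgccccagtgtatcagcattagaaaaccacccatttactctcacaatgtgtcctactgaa
Cyba probe at chr8:124950893-124951161, minus strand: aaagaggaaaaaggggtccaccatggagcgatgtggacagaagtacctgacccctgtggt

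The 250 bases before the annotated start of the 3 catalytic genes are given from RefSeq, build GRCm38.p6, because Cybb, Nox4 and Nox1 turned out to vary between mice in different ways. Capitals mark matches on either strand to GAGGAA, a core that PU.1 binds in myeloid genes, and to CCAAT. The CArG box, the serum response factor motif of smooth muscle genes, was searched too.
Cybb, chrX:9469325-9469574, minus strand: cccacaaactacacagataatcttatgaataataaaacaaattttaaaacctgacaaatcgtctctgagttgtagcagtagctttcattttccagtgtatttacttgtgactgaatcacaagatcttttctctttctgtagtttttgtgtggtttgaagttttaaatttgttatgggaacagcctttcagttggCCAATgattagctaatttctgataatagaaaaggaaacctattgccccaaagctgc
Nox4, chr7:87246399-87246648, plus strand: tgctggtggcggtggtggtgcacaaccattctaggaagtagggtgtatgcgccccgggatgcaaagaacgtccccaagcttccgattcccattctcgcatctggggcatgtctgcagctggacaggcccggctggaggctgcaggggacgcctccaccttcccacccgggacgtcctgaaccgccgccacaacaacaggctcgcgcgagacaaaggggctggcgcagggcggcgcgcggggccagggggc
Nox1, chrX:134111855-134112104, minus strand: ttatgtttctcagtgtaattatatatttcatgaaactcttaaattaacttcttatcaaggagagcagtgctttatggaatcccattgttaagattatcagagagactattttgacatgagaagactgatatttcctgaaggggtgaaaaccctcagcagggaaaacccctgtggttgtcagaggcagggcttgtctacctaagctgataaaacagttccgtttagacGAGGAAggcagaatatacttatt

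In these windows CCAAT lay 56 to 52 bases before the start of Cybb, GAGGAA lay 23 to 18 bases before the start of Nox1, and Nox4 held no match to the 3 motifs. The promoter table held 6 of the 9 genes, and among the other 3 of these, Noxa1 held 1 CCAAT on the opposite strand, 57 to 53 bases before its start. Of 32851 promoter windows of the same length, 23.3% held GAGGAA, 33.8% held CCAAT and 1.47% held a CArG box. The matches are a description of letters, and nothing about the factors follows from them.

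All levels below are log2 signals relative to the array's own 75th percentile over gene probes, so that 0 is that percentile and a step of 1 is a 2-fold difference. A change is the mean at 20 months minus the mean at 6 months on this scale, with its standard error from a limma fit over all genes. Levels of different probes are not on 1 common scale and are given side by side only as values. The arrays lay on 3 slides with 2 of each age on each, and 47.5% to 55.8% of the gene probes of an array were well above background. Slide column 3 held all 6 arrays of the older mice and none of the younger, whose arrays were in column 1 (5) or column 4 (1), so age and slide column cannot be told apart. On 3 arrays, 20 months replicate 1 and 6 months replicates 1 and 4, the marker list of heart muscle or that of T and NK cells was high. Acta2, the actin of smooth muscle, averaged 10.13 ± 0.09 at 20 months and 10.14 ± 0.14 at 6 months, and Myh11, its myosin, 7.03 ± 0.12 at 20 months and 7.05 ± 0.39 at 6 months. Pecam1 and Cdh5, adhesion proteins of endothelial junctions, averaged 1.67 ± 0.23 and 2.37 ± 0.22 at 20 months, against 1.65 ± 0.20 and 2.56 ± 0.25 at 6 months (SD, n = 6 each), so defining markers of the vessel wall were well detected. The fat gene Adipoq was also bright, at 7.02 ± 0.24 at 20 months and 7.17 ± 0.27 at 6 months, although per the labels the vessel had been cleaned of fat.

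None of the 9 subunits differed between the ages past an adjusted p of 0.05. The fit gave adjusted p-values between 0.542 for Cybb and 0.964 for Noxa1 (limma, Benjamini-Hochberg over 16853 genes). In the same fit 0.261% of all genes were called higher and 0.0534% lower, 0.314% in either direction. At an unadjusted p under 0.05 the count was 1 of 9 (Cybb, higher), against 7.99% of all genes, 4.57% higher and 3.42% lower. A change smaller than 1.2-fold was found in 6 of the 9 subunits and in 87.3% of all genes. Changes were above 0 in 7 subunits and below 0 in 2, against 43.9% of all genes above 0. The median change was 0.16 over the 9 subunits and -0.02 over all genes. In no subunit did the 6 values at 20 months all lie on one side of the 6 at 6 months, which 0.813% of all genes showed. In bulk tissue, fewer cells of a type and less RNA per cell cannot be told apart, which holds for every value below.

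**Figure D1:**
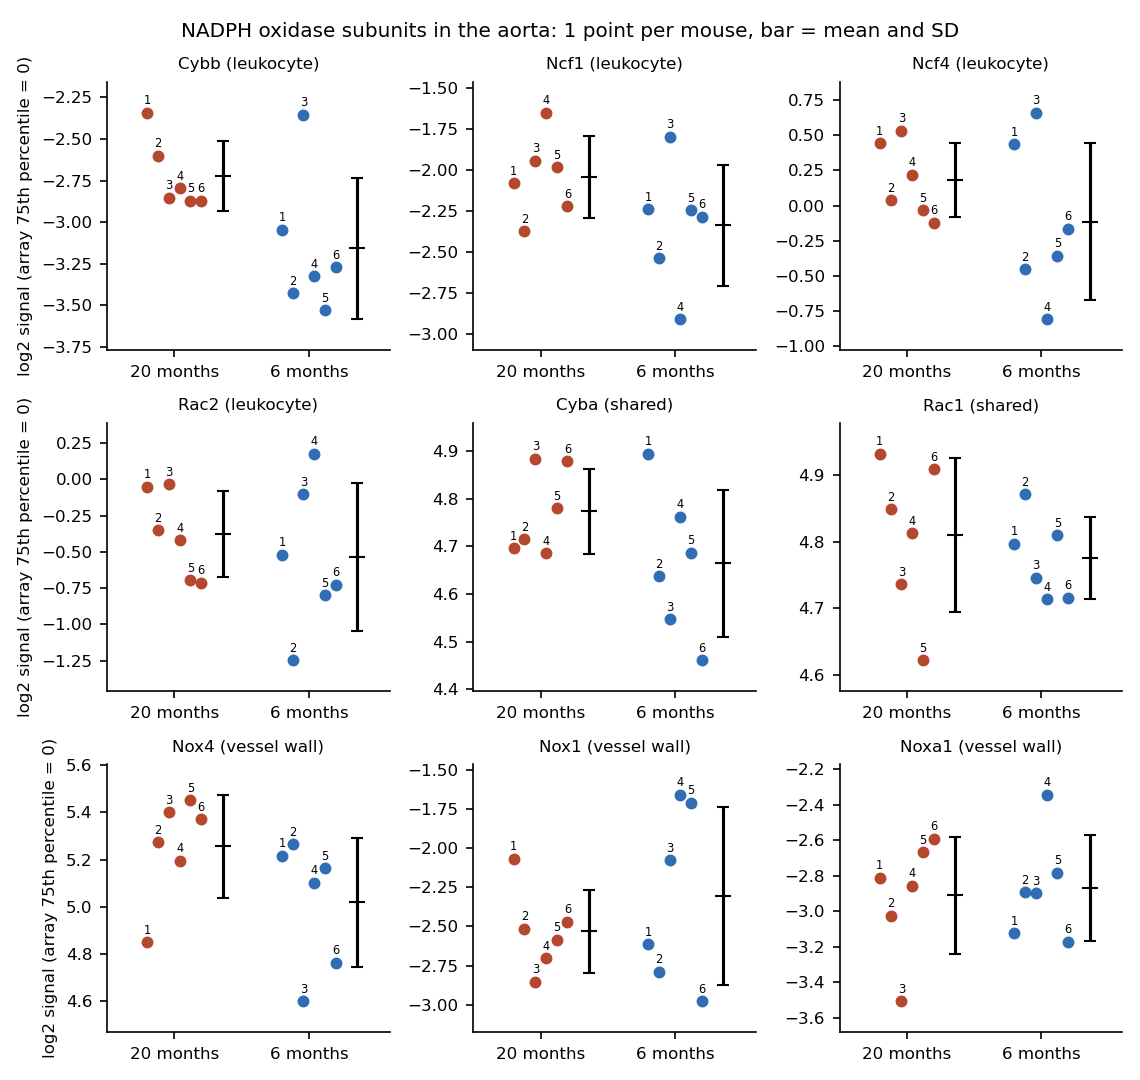
Log2 signal of the probe used for each subunit (vertical axis, 0 is the array's 75th percentile) in every mouse, with 20 months left and 6 months right in each panel, replicate numbers beside the points and bars for the mean and SD of 6 mice. The ages overlap in every panel, and in the Cybb panel 5 of the 6 values at 6 months lie below all values at 20 months.

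Cybb had the largest change of the 9. It encodes the catalytic subunit of the phagocyte enzyme, and its single probe (chrX:9013216-9013275, minus strand, mm9) was dim. It cleared background in all 6 mice at 20 months and in 5 of 6 mice at 6 months. The level was -2.87 at the lowest, -2.82 at the median and -2.34 at the highest at 20 months, against -3.53, -3.30 and -2.35 at 6 months. At 6 months 5 of 6 mice lay below every mouse at 20 months, and the exception, replicate 3 at -2.35, was about as high as the highest mouse at 20 months. The mean was -2.72 ± 0.21 at 20 months and -3.16 ± 0.43 at 6 months (SD, n = 6 each), a change of 0.44 ± 0.18 (SE). This is 1.35-fold with a 95% interval of 1.04 to 1.77, at an unadjusted p of 0.0294 and an adjusted p of 0.542 (limma). Within the 3 slides the change was 0.42, 0.59 and 0.30. With single mice left out it lay between 0.36 and 0.60. It was 0.36 without 20 months replicate 1 (unadjusted p 0.0682, limma) and 0.60 without 6 months replicate 3 (adjusted p 0.0974, limma). Leaving out 6 months replicate 5 also gave 0.36 (unadjusted p 0.0684, limma), so the unadjusted p under 0.05 depended on single mice. With normexp background correction the change was 0.14. Without the 3 arrays high in heart muscle or T and NK cell markers it was 0.35 (unadjusted p 0.136, limma).

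Ncf1 and Ncf4, which encode cytosolic proteins of the phagocyte enzyme, had changes of like size and wider overlap. Ncf1 encodes p47phox, the organizer that bridges the cytosolic complex to p22phox. Its level was -2.38 at the lowest, -2.03 at the median and -1.65 at the highest at 20 months, against -2.91, -2.27 and -1.80 at 6 months. The ranges overlapped over most of their length, and 6 months replicate 4 was the lowest of all mice. The change was 0.29 ± 0.17 with an adjusted p of 0.691 (limma), -0.06 on slide 1, 0.64 on slide 2 and 0.30 on slide 3. It was 0.18 without 6 months replicate 4 and 0.12 with normexp background correction.

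Ncf4 encodes p40phox, which binds a phosphoinositide of phagosome membranes. Its level was -0.12 at the lowest, 0.13 at the median and 0.53 at the highest at 20 months, against -0.81, -0.26 and 0.66 at 6 months. The 6-month values enclosed those at 20 months, with replicate 3 the highest and replicate 4 the lowest of all 12 mice. The change was 0.29 ± 0.23 with an adjusted p of 0.766 (limma). It was 0.13 on slide 1, 0.63 on slide 2 and 0.11 on slide 3. With single mice left out it lay between 0.15, without 6 months replicate 4, and 0.45, without 6 months replicate 3.

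Rac2 is the GTPase that serves the oxidase of blood cells. Its probe is printed 10 times on each array, and the SD among these spots had a median of 0.08 over arrays, against an SD between mice of 0.30 at 20 months and 0.51 at 6 months. Its level was -0.71 at the lowest, -0.39 at the median and -0.03 at the highest at 20 months, against -1.25, -0.62 and 0.18 at 6 months. The highest mouse was 6 months replicate 4, in which T and NK cell markers lay 1.56 above their 12-array mean, and the part of those markers in it was not tested. The change was 0.16 ± 0.22 with an adjusted p of 0.874 (limma). It was 0.02 without 6 months replicate 2 and 0.30 without 6 months replicate 4.

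Both shared subunits had changes near 0. Cyba encodes p22phox, the membrane partner that stabilises NOX1, NOX2 and NOX4. Its level was 4.69 at the lowest, 4.75 at the median and 4.88 at the highest at 20 months, against 4.46, 4.66 and 4.89 at 6 months. All mice at 20 months lay inside the 6-month range, and 6 months replicates 3 and 6 were the lowest. The change was 0.11 ± 0.08, 1.08-fold with a 95% interval of 0.954 to 1.22, at an adjusted p of 0.762 (limma). The junction probe printed above, read on a dimmer scale, gave 1.99 ± 0.11 at 20 months and 1.85 ± 0.15 at 6 months, a change of 0.15. The change of the probe used was 0.07 without 6 months replicate 6. It was 0.21 with an adjusted p of 0.441 (limma) without the 3 arrays high in heart muscle or T and NK cell markers. That setting kept 6 months replicates 3 and 6.

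Rac1 is the GTPase found in most cells, where it also steers the cytoskeleton. Its level was 4.62 at the lowest, 4.83 at the median and 4.93 at the highest at 20 months, against 4.71, 4.77 and 4.87 at 6 months. The 20-month values enclosed the 6-month ones. The change was 0.03 ± 0.07, 1.02-fold with a 95% interval of 0.923 to 1.14, and the second Rac1 probe gave -0.04. Differences inside this interval could not be resolved with 6 mice per age.

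Nox4 encodes the constitutively active oxidase of smooth muscle and endothelium. Its level was 4.85 at the lowest, 5.32 at the median and 5.45 at the highest at 20 months, against 4.60, 5.13 and 5.27 at 6 months. At 20 months replicate 1 was the lowest, and at 6 months replicates 3 and 6 lay below all other mice. The change was 0.24 ± 0.14, 1.18-fold with a 95% interval of 0.963 to 1.44, at an adjusted p of 0.691 (limma), and all 3 slides gave values above 0 (0.13, 0.15 and 0.44). The junction probe gave 0.99 ± 0.18 at 20 months and 0.84 ± 0.30 at 6 months, a change of 0.15. Without 6 months replicate 3 the change was 0.15. Without the 3 arrays high in heart muscle or T and NK cell markers it was 0.39 with an adjusted p of 0.414 (limma). That setting dropped 20 months replicate 1, the lowest of its age, and kept 6 months replicates 3 and 6, the lowest of theirs.

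Nox1 encodes the inducible oxidase of smooth muscle. Its first printed probe had -2.85 at the lowest, -2.55 at the median and -2.07 at the highest at 20 months, against -2.98, -2.35 and -1.66 at 6 months. The 6-month mice were spread wide, with replicates 4 and 5, both on slide 2, at -1.66 and -1.71 and replicate 6 at -2.98. The change was -0.23 ± 0.23 with an adjusted p of 0.819 (limma), and the slides did not go one way, with 0.14 on slide 1, -0.90 on slide 2 and 0.08 on slide 3. It was -0.10 without 6 months replicate 4 and -0.11 without 6 months replicate 5. The second printed Nox1 probe was above background on 0 of 12 arrays, averaged -5.69 at both ages and was not tested.

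Noxa1, the activator that partners NOX1, had -3.51 at the lowest, -2.83 at the median and -2.59 at the highest at 20 months, against -3.17, -2.89 and -2.34 at 6 months. The change was -0.04 ± 0.17 with an adjusted p of 0.964 (limma), and the ranges overlapped over most of their length. Its sign turned without 20 months replicate 3, to 0.08, and without 6 months replicate 4, to 0.06.

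**Figure D2:**
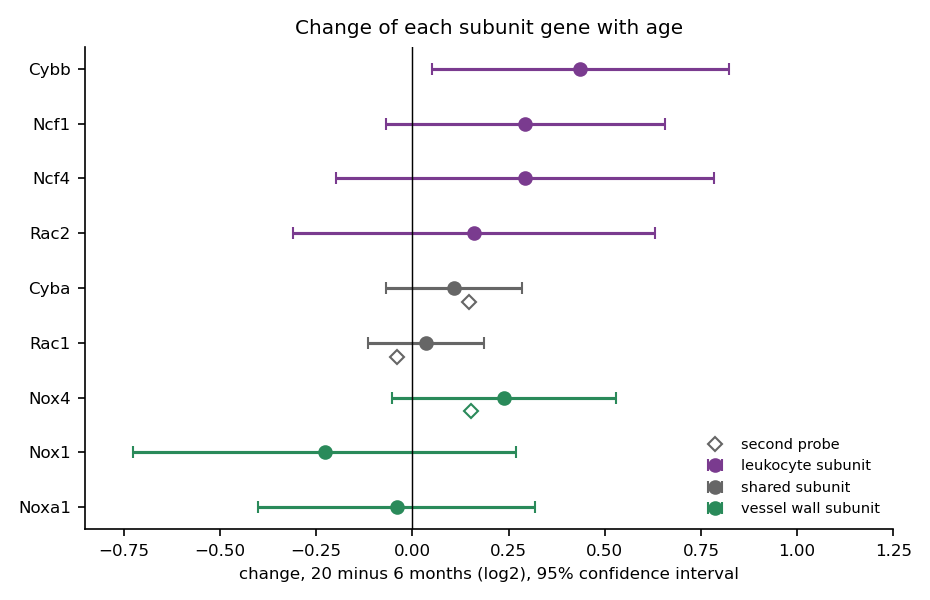
Change in log2 signal (20 months minus 6 months, horizontal axis) of each subunit with its 95% interval from the limma fit, coloured by class, with open diamonds for the second probe of a gene where it was tested. The interval of Cybb (0.05 to 0.82) is the only one of the 9 that lies wholly above 0, before any adjustment.

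Set side by side, the 4 leukocyte subunits had changes of 0.16 to 0.44, the 2 shared ones of 0.03 and 0.11, and the 3 vessel-wall ones of -0.23, -0.04 and 0.24. As a mean deviation from each gene's 12-array mean, the leukocyte subunits stood at 0.15 ± 0.19 at 20 months and -0.15 ± 0.36 at 6 months (SD, n = 6 mice each). The vessel-wall subunits stood at -0.01 ± 0.15 at 20 months and 0.01 ± 0.30 at 6 months. In both classes the ages overlapped, and because the genes were picked with results known no p is given for the classes. Mice at 6 months varied more than mice at 20 months in 7 of the 9 subunits, 77.8%, against 65.9% of all genes. The SD at 6 months was, at the median, 1.72 times that at 20 months over the subunits and 1.198 times over all genes.

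The leukocyte subunits were set beside markers of the cells that carry them, as leukocytes are their best known source. All 18 macrophage markers tested had a change above 0, from 0.04 (Aif1) to 0.57 (Cd68), against 43.9% of all genes. They were read in the same mice and are not 18 independent signs. The mean deviation of the list was 0.12 ± 0.18 at 20 months and -0.12 ± 0.28 at 6 months (SD, n = 6 each). The difference was 0.24, with a two-sided exact permutation p of 0.110 and 0.703 adjusted over 11 cell lists. The summed linear signal of the list, in multiples of the 75th percentile, ran between 185 and 242 at 20 months and between 151 and 203 at 6 months. Itgam led it, at a log2 level of 6.957 ± 0.211 at 20 months and 6.803 ± 0.257 at 6 months. Probes share no common scale, so such a sum follows the brightest probes and is not a level of macrophages. Csf1r, the receptor that macrophages need to survive, averaged 4.83 ± 0.15 at 20 months and 4.60 ± 0.26 at 6 months, and Adgre1, an adhesion receptor that marks mouse macrophages, 0.54 ± 0.17 at 20 months and 0.30 ± 0.43 at 6 months. Cd68, a lysosomal protein of macrophages, averaged -2.74 ± 0.32 at 20 months and -3.31 ± 0.55 at 6 months. The adjusted p was 0.664 for Csf1r, 0.761 for Adgre1 and 0.540 for Cd68 (limma). Taken relative to the macrophage list in each mouse, Cybb stood at 0.10 ± 0.14 at 20 months and -0.10 ± 0.25 at 6 months (SD, n = 6 each), a difference of 0.20 that was not tested. The difference was 0.06 for Ncf1, 0.06 for Ncf4 and -0.08 for Rac2, and the part of macrophage number in these values was not tested.

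Of the 9 markers of leukocytes in general 8 had a change above 0, against 43.9% of all genes. The mean of the list differed by 0.16 (exact permutation p = 0.353). Ptprc, the CD45 antigen of all leukocytes, was the exception, with -1.53 ± 0.35 at 20 months and -1.52 ± 0.49 at 6 months. The neutrophil list had 5 of 11 genes tested and differed by 0.14 (exact p = 0.519), the B cell list 3 of 6 and 0.21 (exact p = 0.413), and the T and NK cell list 8 of 11 and -0.24 (exact p = 0.606). The smooth muscle list differed by 0.07 (exact p = 0.587). Its summed signals, which also follow the brightest probes, were 2604 to 3241 at 20 months and 2408 to 3333 at 6 months. Endothelial (-0.07, exact p = 0.392), fibroblast (0.04, exact p = 0.639), adipocyte (-0.21, exact p = 0.262), heart muscle (-0.09, exact p = 0.911) and erythroid (0.45, exact p = 0.139) lists did not pass either.

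**Figure D3:**
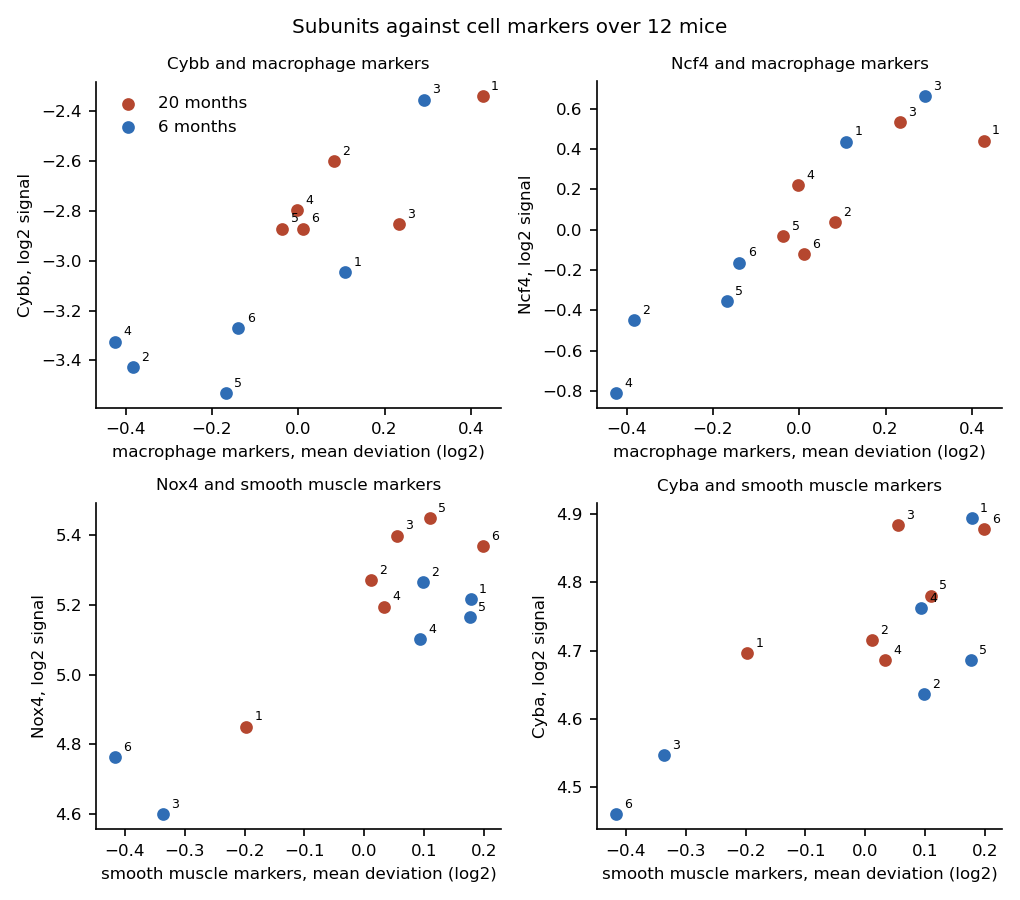
Log2 signal of Cybb and Ncf4 against the mean log2 deviation of the macrophage markers, and of Nox4 and Cyba against that of the smooth muscle markers, 1 point per mouse with its replicate number, 20 months in red and 6 months in blue. Cybb and Ncf4 are higher where the macrophage markers are higher, and for Nox4 and Cyba 3 mice with low smooth muscle markers stand apart from the other 9.

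Between mice 2 of the 4 leukocyte subunits, Ncf4 and Cybb, varied with macrophage markers past the threshold. For Ncf4 the correlation with the macrophage list over 12 mice was 0.926 (Pearson r, permutation p = 1e-05, the smallest the resamples can give, adjusted 0.00054 over 54 relations) and 0.944 (Spearman rho, adjusted permutation p 0.00324). It was 0.927 without the 2 mice farthest from the median of the list, 0.789 among the 20-month mice and 0.976 among the 6-month mice. For Cybb, r was 0.864 (permutation p = 0.00038, adjusted 0.0103) and rho 0.853 (adjusted permutation p 0.0202), with r of 0.825 without 2 mice, 0.768 among 20-month mice, 0.839 among 6-month mice and 0.811 after centring on age and slide. Cybb and Ncf4 also varied together, with r = 0.769 (adjusted permutation p 0.0337) and rho = 0.818 (adjusted permutation p 0.0344), and with r of 0.699 without 2 mice, 0.388 at 20 months and 0.828 at 6 months. These were the 3 relations of 54 that passed by both measures, and slides of 4 arrays are too small for an r of their own.

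Ncf1 followed the same markers only in part. Its r with the macrophage list was 0.687 (adjusted permutation p 0.0896), -0.116 among 20-month mice and 0.910 among 6-month mice, a difference between ages that was not tested. With Ncf4 its r was 0.790 (adjusted permutation p 0.0237) and its rho missed the threshold (adjusted permutation p 0.0663). For Rac2 the r with the macrophage list was 0.446 over 12 mice (adjusted permutation p 0.600). It was 0.867 among 20-month mice and 0.234 among 6-month mice, a difference that was not tested. Without the 3 arrays high in heart muscle or T and NK cell markers, a setting chosen after seeing the data, it was 0.964. That setting drops 6 months replicate 4, the mouse with the highest Rac2 and the lowest macrophage list.

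On the smooth muscle list 3 mice stood apart. Low values were seen in 20 months replicate 1 at -0.20, 6 months replicate 3 at -0.34 and 6 months replicate 6 at -0.42, and the other 9 mice lay between 0.01 and 0.20. The same 3 mice had the lowest Nox4 signals, and 6 months replicates 3 and 6 the lowest Cyba. Over all 12 mice the r of Nox4 with the list was 0.866 (adjusted permutation p 0.0237), with a rho of 0.594 (adjusted permutation p 0.247) and an r of 0.641 without the 2 lowest mice. For Cyba it was 0.792 (adjusted permutation p 0.0237), with a rho of 0.650 (adjusted permutation p 0.200) and an r of 0.407 without the 2 lowest. Among the 9 mice above 0, whose list values cover only a narrow range, r was -0.0128 for Nox4 and 0.380 for Cyba, and the r between Cyba and Nox4, 0.754 over all mice (adjusted permutation p 0.0366), was 0.419. Those 3 mice had adipocyte marker means of 0.34, 0.35 and 0.66 above the 12-array mean, the highest of the 12, and what set them apart was not tested.

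Nox1 and its activator Noxa1 had an r of 0.649 over 12 mice (adjusted permutation p 0.123) and a rho of 0.713 (adjusted permutation p 0.128), which did not pass over 54 relations. Without the 2 mice farthest from the median, r was 0.402, and after centring on age and slide 0.415.

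**Figure D4:**
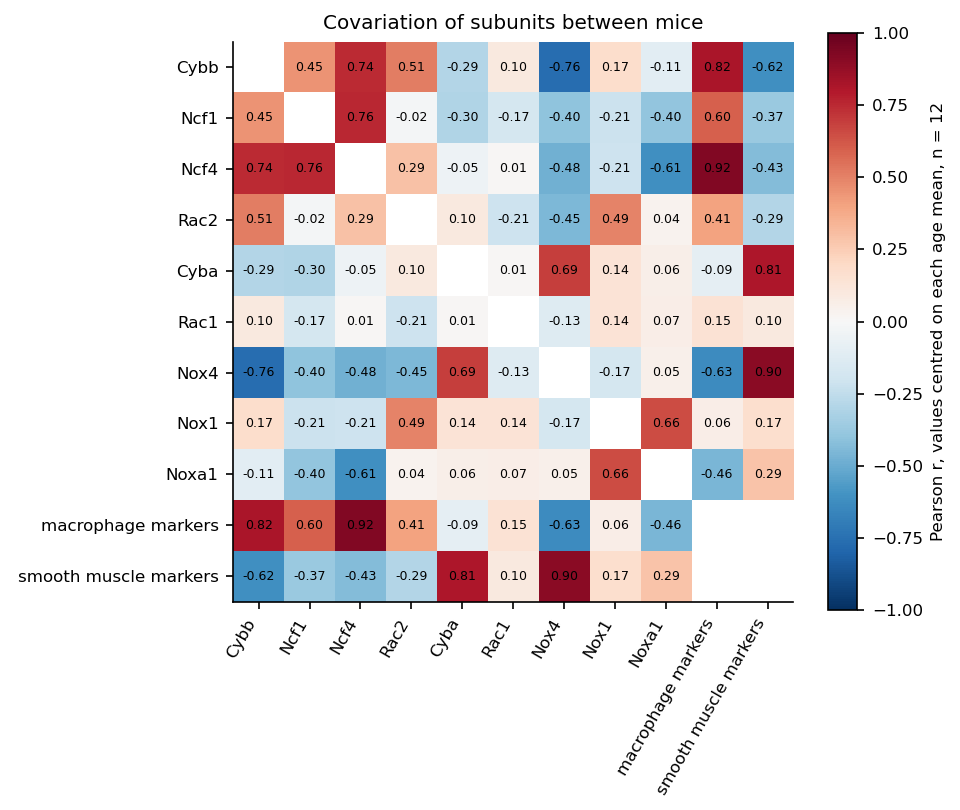
Pearson r over 12 mice, on values centred on each age's mean, between each pair of subunits and between each subunit and the macrophage and smooth muscle marker lists, on a colour scale from -1 to 1. The squares for Cybb and Ncf4 with the macrophage markers read 0.82 and 0.92, and those for Nox4 and Cyba with the smooth muscle markers 0.90 and 0.81.

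The genes whose pattern over the 12 mice was most like that of Cybb, on values centred on age, were Ms4a7 (r = 0.958), Cd72 (0.941), Aif1 (0.941), Tmem176a (0.929) and Gatm (0.928). Aif1, a calcium-binding protein of macrophages, is also one of the macrophage markers used above. Genes with Gm, LOC, Rik, accession or clone names were left out of this ranking. Ncf4 stood at rank 152 on this measure and Ncf1 at rank 2119. For Nox4 they were Dph3 (0.980), Eml1 (0.974), Srf (0.973), Fgf1 (0.969) and Sh3bgr (0.969), and Cyba stood at rank 1376. Nox4 ranked 13384 for Cybb, with an age-centred r of -0.761, but without centring their r was -0.280 (adjusted permutation p 0.839) and among the 9 mice with smooth muscle markers above 0 it was 0.526. These ranks describe 12 arrays, and a ranking of so many genes picks out its own highest values.

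The partners and regulators of the oxidases were then read from a list of 32 genes, of which 25 were tested. Changes were above 0 in 17 and below 0 in 8, and 0 passed the adjusted threshold in either direction. At an unadjusted p under 0.05 were 1 higher and 1 lower (limma). Over all genes 43.9% of changes were above 0, 0.314% passed the adjusted threshold and 7.99% had an unadjusted p under 0.05 (limma). Pak1, a kinase that Rac activates and that phosphorylates p47phox, had -1.48 ± 0.30 at 20 months and -2.03 ± 0.25 at 6 months, a change of 0.55 ± 0.15 with an adjusted p of 0.231. Sh3pxd2a, which encodes the scaffold TKS5, had -1.34 ± 0.25 at 20 months and -1.02 ± 0.26 at 6 months, a change of -0.31 ± 0.14 with an adjusted p of 0.599. The others with the smallest p were Prkcd, a protein kinase C that acts on p47phox (0.24), P4hb, a disulfide isomerase (0.13), Prkcz, an atypical protein kinase C (0.25), and Arhgdia, which holds Rac in the cytosol (0.12). Nox3, Duox1, Duox2, Duoxa2, Rap1a and Src had no test, being above background on 0 to 5 arrays.

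Enzymes that remove superoxide and peroxide were all tested, 16 of 16, with 5 changes above 0, 11 below 0 and 0 past the adjusted threshold. The shares over all genes were 43.9% above 0 and 7.99% at an unadjusted p under 0.05 (limma). Txn1, thioredoxin, which keeps peroxiredoxins reduced, had 4.84 ± 0.05 at 20 months and 5.02 ± 0.06 at 6 months, a change of -0.18 ± 0.06 at an adjusted p of 0.348 (limma) and the only 1 of the 16 at an unadjusted p under 0.05. Sod2, the mitochondrial superoxide dismutase, had 6.77 ± 0.40 at 20 months and 7.13 ± 0.37 at 6 months, a change of -0.36 ± 0.20 (adjusted p 0.686). The glutathione peroxidase Gpx1 changed by -0.15 ± 0.08 and the peroxiredoxins Prdx1 and Prdx3 by -0.12 ± 0.09 and -0.22 ± 0.19, none past the threshold, and catalase, Cat, by 0.11 ± 0.09.

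Other sources of oxidants had 12 of 14 genes tested, with 7 changes above 0, 5 below 0 and 0 past the adjusted threshold. With an unadjusted p under 0.05 there were 1 higher and 0 lower (limma), against 7.99% of all genes in either direction. Alox12, a lipoxygenase, had -1.41 ± 0.22 at 20 months and -1.88 ± 0.32 at 6 months, a change of 0.47 ± 0.15 with an adjusted p of 0.342 (limma). Ptgs2, the inducible cyclooxygenase, had -0.43 ± 0.77 at 20 months and -1.07 ± 0.42 at 6 months, and the leukocyte lipoxygenase Alox5 -0.22 ± 0.25 at 20 months and -0.52 ± 0.33 at 6 months, with adjusted p-values of 0.668 and 0.676. Cyp1b1 (0.22), the monoamine oxidase Maob (-0.12) and the inducible nitric oxide synthase Nos2 (-0.16) had smaller changes. Mpo, the peroxidase of neutrophils, was above background on 1 array and Alox15 on 0.

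**Figure D5:**
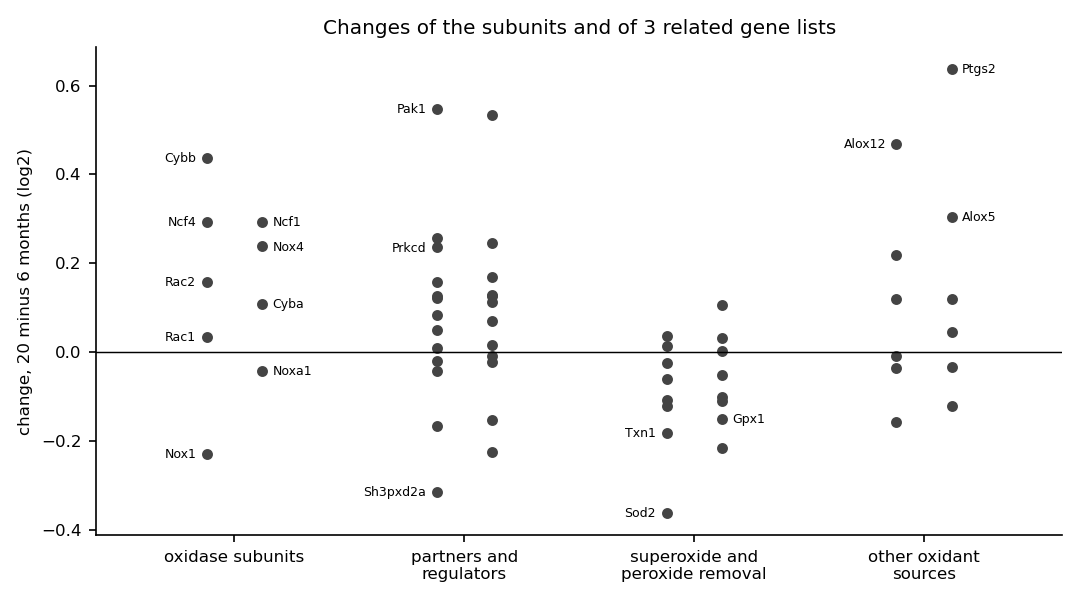
Change in log2 signal (20 months minus 6 months, vertical axis) of the 9 subunits and of every tested gene of the 3 pathway lists, 1 point per gene without error bars, with the subunits and the 3 genes of smallest p in each list named. The points of each set lie on both sides of 0, and no gene of these sets passed the adjusted threshold.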

How the data were processed

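RNA of 12 descending aortas, 100 ng each, was hybridised to 12 arrays. The deposited scanner files hold an intensity for each of 59305 gene spots, the green signal that Agilent Feature Extraction 10.7.1.1 had corrected for background, per the file headers. A deposited table of log2 values from the same arrays, whose steps are not given in the sources used here, served as an alternative. It was matched to the scanner values for 55630 probes, and its probe medians are 0. Over the probes that passed the filter on dim probes, its values correlated at 0.921 to 0.991 with the median-centred scanner values.

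Outlier spots were left out, spots of a probe averaged on the log2 scale, and the 75th percentile of gene probes subtracted, which left 55630 of 55681 probes. Names came from RefSeq tables by accession (26413 probes) or symbol (4594) or from the array (4779). 19895 probes had none. Probes well above background on at least 6 arrays were kept (27583), the brightest per gene was used, and a limma model (version 3.58.1, functions lmFit and eBayes) with age as its term was fitted in R 4.3.3. Files were read with data.table version 1.17.8. A member's cell list values are means of deviations from 12-array means. Correlations used 100000 resamples. Each mouse is 1 sample, and 6 mice per age limit the precision.

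The subunits, their classes, 3 pathway lists and 11 cell lists were chosen with earlier results of these data known. Named genes are the 9 subunits, up to 6 per pathway list by smallest p, the 5 most similar to Cybb and to Nox4, and 8 fixed markers, with Adipoq and Itgam added after their values were seen. The fit was tested on simulated data. Alternatives were normexp with an offset of 50, quantile and median scaling, the table of log2 values, other filters, slide blocks and single slides. Further ones were the replicate number as a block, trend and robust settings, other probe rules and single arrays left out. Leaving out the 3 arrays high in heart muscle or T and NK cell markers was chosen after seeing the data. Probe positions are those of the array files (mm9), and the exon each probe lies in was not analysed here. 1 gene of a pathway list is not reported here.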

Additional observations from a re-analysis of the deposited data

Results flagged for a closer look

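None of the 9 subunits had a mouse far from the other 5 of its age by the gap measure used, which sets the distance to the nearest other mouse against the range of the 6. Among the 28 groups of 6 mice examined, 2 stood out, and chance gives about 1 in 20. The heart muscle marker list lay at 3.37 above its 12-array mean in 20 months replicate 1, with the next mouse of that age at -0.05 and a gap of 0.720 of the range. That mouse also had the lowest Nox4 and the highest Cybb of the 20-month mice. The T and NK cell marker list lay at 1.56 in 6 months replicate 4, with the next at 0.08 and a gap of 0.674 of the range. That mouse had the highest Rac2, Nox1 and Noxa1 and the lowest Ncf1 and Ncf4 of the 12. Its macrophage list was also the lowest, at -0.43, and any link between these values was not tested.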

How the results depend on the processing

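No subunit passed the adjusted threshold in 25 alternatives with a test (24 for Cybb, which has no value where a probe must be above background on all 12 arrays, since it was so on 11). Over the tested alternatives Cybb ranged from 0.14 to 0.60 (adjusted p 0.0974 to 0.986, limma), Ncf1 from 0.12 to 0.40, Ncf4 from 0.15 to 0.45, Rac2 from 0.02 to 0.30, Nox4 from 0.15 to 0.39 and Cyba from 0.07 to 0.21, all above 0, and Nox1 from -0.36 to -0.10. Rac1 (-0.00302 with the mean over its probes) and Noxa1 had changes near 0 whose sign turned. Single slides turned the sign of Ncf1, Rac2, Nox1, Rac1 and Noxa1. Without the 3 arrays high in heart muscle or T and NK cell markers, Cybb changed by 0.35, Ncf1 by 0.18 and Ncf4 by 0.20. Each was lower than on all 12 arrays. In that setting Rac2 changed by 0.28, Cyba by 0.21 and Nox4 by 0.39, each higher than on all 12 arrays. Nox1 changed by -0.24 there, Noxa1 by 0.00683 and Rac1 by -6.67e-05. The counts over all genes depended more on the setting, from 44 higher and 9 lower. They were 29 and 4 with median scaling, 20 and 3 with no filter, and 26 and 4 on the 9 arrays left when 20 months replicate 1 and 6 months replicates 1 and 4 were dropped for their heart muscle or T and NK cell markers. With normexp 33 were higher and 5 lower. Other settings called more. Slide as a fixed block gave 55 and 13, slide as a random block 62 and 12, and a test of all 27583 probes 61 and 10. Leaving out single mice gave 19 to 48 higher and 2 to 11 lower.

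The labels state no pairing of mice by replicate number. Deviations of same-numbered mice correlated at -0.360 to 0.323, over 0.1 in 2 of 6 pairs, which cannot settle whether a pairing existed. With that number as a block, 6 genes were called higher and 0 called lower, and none of the subunits was called. For the dim probes of Cybb, Ncf1, Nox1 and Noxa1, close to background, the changes shrank with normexp. That setting added an offset of 50 before the log2 step, which itself narrows differences at low signal. The part of the offset and that of the correction were not separated.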
